A study of Mus musculus with 8 samples.

Results

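The 38 genes described here mark or instruct the cells that line blood and lymphatic vessels, and they were followed in mammary glands of mice in which Cre targeted floxed Sox9. They were chosen by name as a list of vascular and lymphatic endothelial genes, and all 38 were measured among 19938 genes, each by 1 probe set. The study compared 8 virgin female mice of a C57BL/6 X FVB background, 5 weeks old, all carrying MMTV-Cre, a recombinase under the mouse mammary tumour virus promoter that is used to target mammary epithelium. In 4 mice both copies of the transcription factor gene Sox9 were floxed (MMTV-CRE;SOX9F/F, written flox/flox), and in 4 controls 1 copy was floxed and the other was wild type (MMTV-CRE;SOX9+/F, written flox/+). RNA came from the part of the fourth gland near its lymph nodes, measured on 1 Affymetrix Gene 1.0 ST array per mouse, so precision is limited by 4 arrays per genotype. No wild-type gland and no gland without Cre enters the comparison, and the labels do not say in which cells besides epithelium the Cre was active.

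Endothelial cells are held together by junction proteins such as VE-cadherin, sense vascular endothelial growth factors (VEGFs) through tyrosine kinase receptors, and mature under angiopoietins acting on the TIE receptors. Transcription factors of the SOXF and ETS families set endothelial identity, and PROX1 directs the lymphatic fate. In the pubertal mammary gland, capillaries and lymphatic vessels lie around the growing ducts and in the fat pad.

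Values are intensities on a linear scale after quantile normalization, and a difference is flox/flox less flox/+ in log2(intensity + 16), with standard errors from limma. Adjusted p-values (Benjamini-Hochberg) are over all 19938 genes, with a threshold of 0.05. Sox9 itself read 424, 448, 401 and 366 in the 4 flox/+ glands and 298, 356, 287 and 351 in the flox/flox glands, a log2 difference of -0.33 ± 0.09 (SE) with a limma adjusted p of 0.256. The labels do not give the deleted part of the gene, so the probes may lie outside it. The deposited array medians lay between 159 and 178. Markers of lymphocytes and lymph node summed to 5186 in flox/+ replicate 2 and to between 1408 and 1685 in the other 7 glands. Tissue identifiers begin with R for the controls and with S or T for the flox/flox glands, and the labels do not say what the letter marks. If it marks a litter, cohort or date, that cannot be told apart from genotype in any difference given here.

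The list name was checked against defining markers. Of the markers of blood vessel endothelium 8 of 8 were measured (Pecam1, Cdh5, Kdr, Tie1, Tek, Emcn, Esam and Cldn5), and none read below 297 in any gland. Of the lymphatic markers 6 of 7 were measured, while Ccl21a had no probe set of its own. The lymphatic regulator Prox1 read between 41.5 and 66.8 and the secreted protein gene Mmrn1 between 31.6 and 72.1 and thus among the dimmest genes, where signal cannot be told from background because the deposited table has no detection calls. The lymphatic receptor gene Flt4 was also dim, between 85.4 and 112.2, among the lowest 1 in 3 genes. In whole tissue, fewer cells of a type and less RNA per cell cannot be told apart.

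Reference sequences are shown for the pair of genes at the ends of the range of differences, Vegfc with the lowest and Erg with the highest, and for the miRNA that lies inside Egfl7. Both promoter windows are from RefSeq on GRCm38.p6 and hold 250 bases before and 50 bases after the annotated start, 5′ to 3′ on the gene's strand. Vegfc lies at chr8:54077282-54077581 on the plus strand. The window of Erg is at chr16:95459299-95459598 on the minus strand, 1 of 3 listed for that gene. Capitals mark the core motif of SOX proteins, ACAAT, searched on both strands (ATTGT on the other).
Vegfc: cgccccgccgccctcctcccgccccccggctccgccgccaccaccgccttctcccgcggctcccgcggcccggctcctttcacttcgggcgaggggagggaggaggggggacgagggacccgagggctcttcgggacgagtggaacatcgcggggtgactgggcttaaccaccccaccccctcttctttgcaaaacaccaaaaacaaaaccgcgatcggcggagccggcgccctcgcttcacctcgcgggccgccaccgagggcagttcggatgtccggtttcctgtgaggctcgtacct
Erg: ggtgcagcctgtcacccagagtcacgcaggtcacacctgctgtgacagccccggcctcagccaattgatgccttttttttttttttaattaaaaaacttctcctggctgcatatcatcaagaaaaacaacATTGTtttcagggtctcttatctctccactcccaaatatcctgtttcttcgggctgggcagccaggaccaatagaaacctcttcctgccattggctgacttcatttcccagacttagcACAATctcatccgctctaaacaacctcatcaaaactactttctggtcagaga
miR-126a-3p: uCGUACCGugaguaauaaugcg

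The window of Vegfc held 0 such motifs, and the window of Erg held 2, of which the first starts 120 bases before the annotated start and the second spans it. The other Erg windows held none. Of the 38 genes 19 had windows in the table, 25 in all, and 6 of these windows (24.0%) held the motif, against 31.0% of the 32851 windows of all genes. The ETS core CCGGAA, also searched on both strands and not overlapping the first motif, was in 2 of the 25 windows (8.0%), those of Kdr and Reln, against 14.9% of all windows. A match is a description of the letters only. In miR-126a-3p capitals mark the seed, bases 2 to 8.

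No endothelial gene passed the test between the genotypes. At an adjusted p under 0.05 there were 0 of 38, where 8 of all 19938 genes (0.0401%) passed, and the smallest adjusted p in the list was 0.233. At an unadjusted limma p under 0.05 there were 5 of 38 (13.2%) against 10.3% of all genes, so the share was near the background. Of the 5, Vegfc, Angpt2, Reln and Stab1 were lower in flox/flox (5.46% of all genes were lower at that p) and Erg was higher (4.80% of all genes). The genotypes did not overlap for 2 of 38 genes, Vegfc and Angpt2 (5.26%, against 5.89% of all genes, and 3.16% of all genes for lower values). Among the 38 differences 17 were positive and 21 negative, with a median of -0.03 beside -0.01 over all genes. With the values as deposited 22 were positive and 16 negative, and the median was 0.01, as was that of all genes.

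The intervals show what sizes the data allow. For 33 of the 38 genes the 95% interval of the difference included 0, and for 32 it lay within 0.5 in either direction on the log2 scale, which is 1.41-fold. The other 6 genes, whose intervals reached further, were Vegfc, Flt1, Angpt2, Sox18, Lyve1 and Stab1. The difference was larger than the spread between replicates, taken as the SD within genotypes, for 5 genes, the same 5 at an unadjusted p under 0.05.

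**Figure D1:**
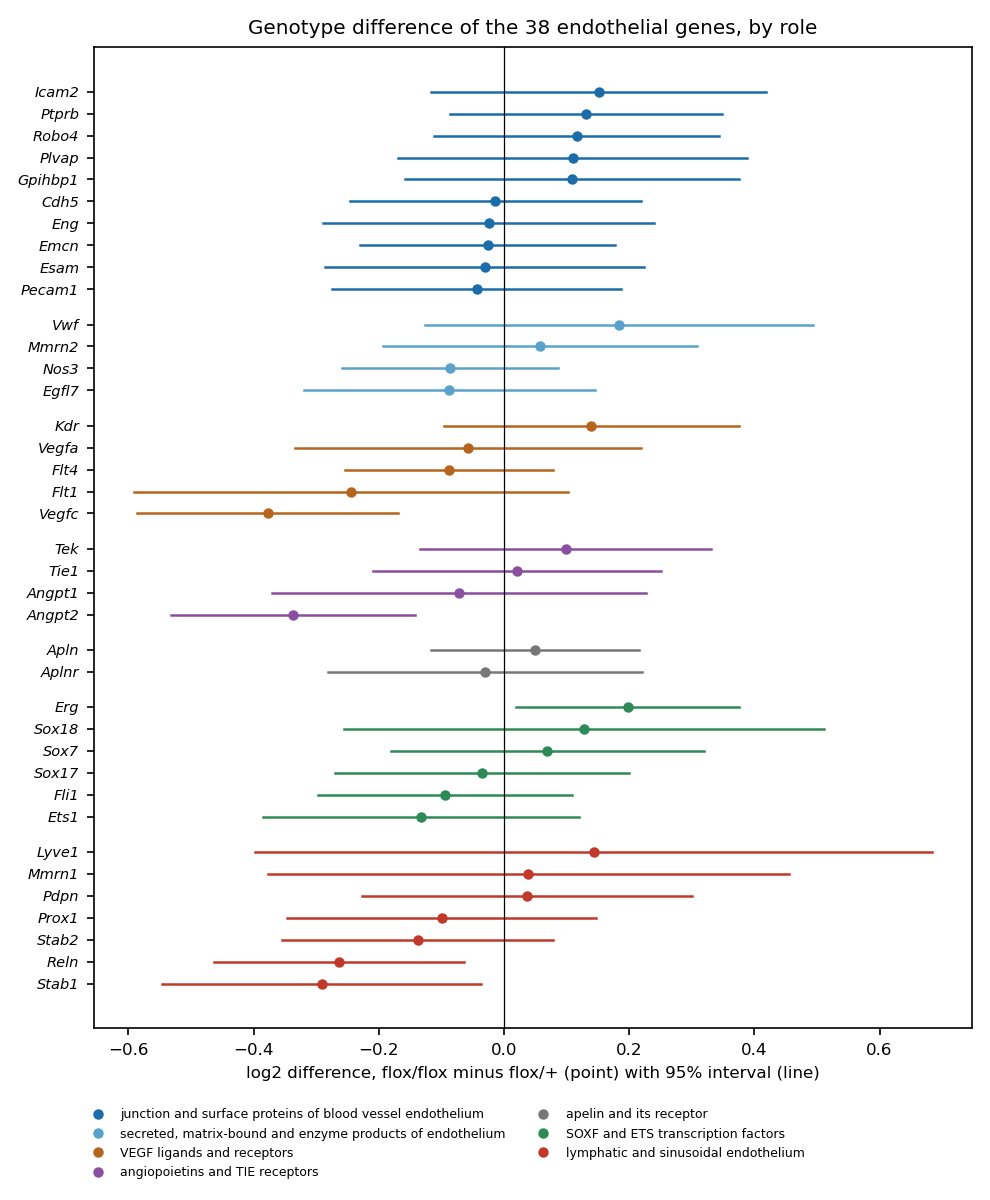
Log2 difference, flox/flox minus flox/+ (points, x axis), with its 95% interval from limma (lines) for each of the 38 genes (y axis), coloured by role. Intervals of Vegfc, Angpt2, Reln, Stab1 and Erg lie to 1 side of 0, and the other 33 cross it.

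The junction and surface proteins of blood vessels differed little between the genotypes, with 5 of 10 genes positive, 5 negative, 0 at an unadjusted p under 0.05 and a median of 0.05. Pecam1, an adhesion molecule of endothelial junctions also known as CD31, read 859, 937, 985 and 790 in flox/+ and 1058, 804, 817 and 797 in flox/flox glands. The value in flox/flox replicate 1 was the highest of the 8, and the genotypes overlapped. The log2 difference of Pecam1 was -0.04 ± 0.10 (SE, 95% interval -0.27 to 0.19), so levels under 82.7% or over 113.9% of the control lie outside the interval. Cdh5, which encodes VE-cadherin, read 1196, 984, 1221 and 1087 in flox/+ and 1280, 1122, 1136 and 921 in flox/flox glands. Its highest and its lowest value were both in flox/flox, and its difference was -0.01 ± 0.11 (interval -0.25 to 0.22). The junction protein gene Esam was at -0.03 ± 0.12, the sialomucin gene Emcn at -0.03 ± 0.09 and the TGF-beta co-receptor gene Eng at -0.02 ± 0.12. Eng read 849 in flox/+ replicate 2, the gland rich in lymphocyte markers, and its difference was -0.10 without that gland. It read lowest, at 813, in flox/flox replicate 4, and its difference was 0.07 without that gland. The cause of these low values was not tested. Icam2, an adhesion ligand for leukocytes, had a positive difference of 0.15 ± 0.12. Ptprb, the phosphatase that opposes TIE2 signalling, was at 0.13 ± 0.10. Robo4, a guidance receptor of endothelium, was at 0.12 ± 0.10. Plvap, the diaphragm protein of fenestrated vessels, was at 0.11 ± 0.13, and Gpihbp1, which carries lipoprotein lipase to the capillary lumen, at 0.11 ± 0.12.

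Icam2, the gene of this group with the largest difference, read 145, 153, 169 and 123 in flox/+ and 176, 186, 177 and 126 in flox/flox glands. In 3 of 4 flox/flox glands it was above every control, while flox/flox replicate 4 lay at the low end. Without that gland the log2 differences were 0.27 for Icam2, 0.24 for the VEGF receptor gene Kdr, 0.23 for Gpihbp1 and 0.21 for Robo4, each at an unadjusted limma p under 0.05 and with adjusted p between 0.438 and 0.489. The number of the 38 genes at that p then was 8, where 9.51% of all genes were at that p without this gland. The genotypes did not overlap for 7, against 9.48% of all genes. For these named genes that gland was the lowest of the flox/flox glands, so leaving it out was bound to raise their differences. Without flox/flox replicate 1 the differences were 0.12 for Icam2, 0.08 for Kdr, 0.04 for Gpihbp1 and 0.05 for Robo4. In that fit 14 of the 38 genes were positive and 24 negative, with a median of -0.07.

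The spread of the blood vessel genes lay between glands more than between genotypes. For the 7 blood vessel markers that belong to the list (Pecam1, Cdh5, Kdr, Tie1, Tek, Emcn and Esam), the mean log2 deviation from each gene's average was 0.24 in flox/flox replicate 1 and -0.17 in flox/flox replicate 4, the highest and the lowest gland. The controls lay between -0.08 and 0.06. The flox/flox glands thus spanned 0.41 on the log2 scale and the controls 0.14, while the genotype means differed by 0.02. Cldn5, the blood vessel marker outside the list, is not part of this mean, and its difference was larger and negative (-0.56 ± 0.18). Over all 38 genes, flox/flox replicate 1 held the highest value for 15 and flox/flox replicate 4 the lowest for 11. Markers of mammary epithelium ran the other way in these glands: their summed intensity was 12831 in flox/flox replicate 1, the lowest of the 8, and 16631 in replicate 4, the highest, with controls between 13277 and 15808. The other glands were mixed by mean log2 deviation. Both lists deviated in the same direction in flox/+ replicates 1, 2 and 3 and flox/flox replicate 2. They deviated in opposite directions in flox/+ replicate 4 and flox/flox replicate 3. Of the 14 measured epithelial markers 6 had positive and 8 negative genotype differences, none was at 0, and their part in the vascular values was not tested.

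**Figure D2:**
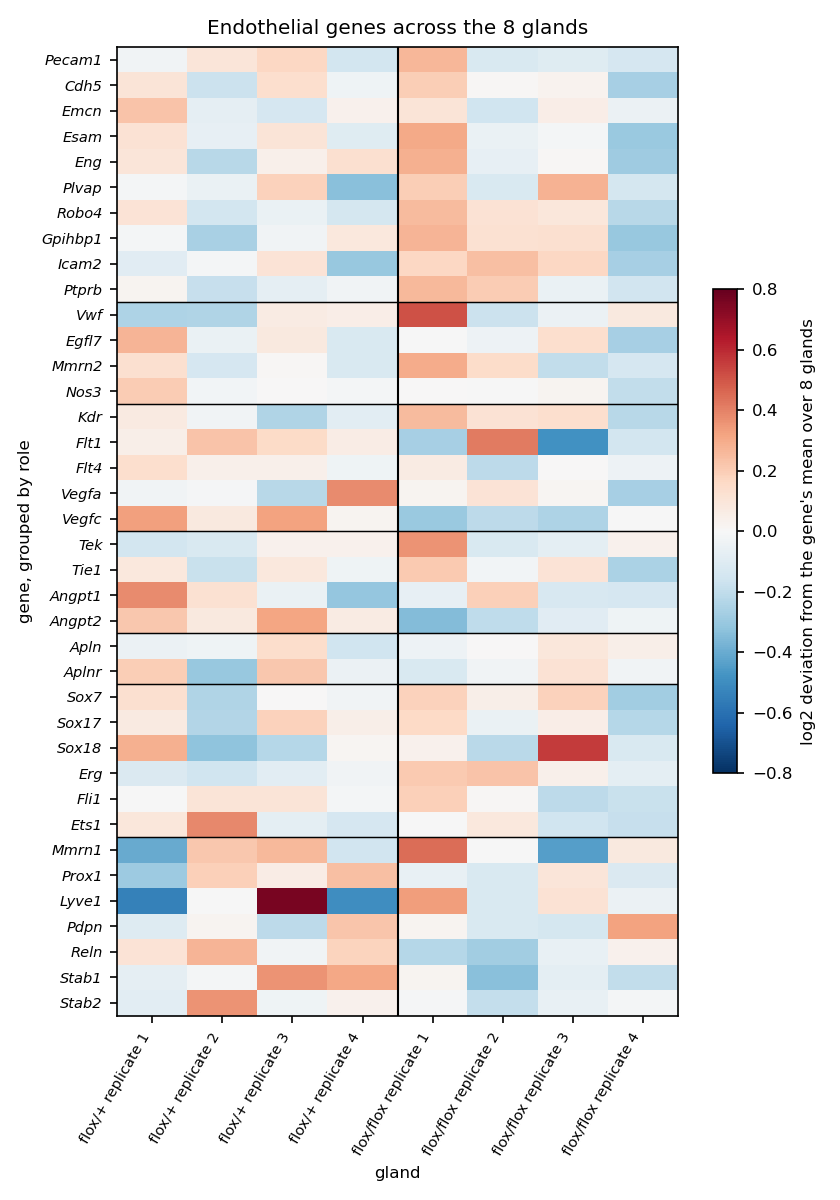
Log2 deviation of each gene (rows, grouped by role) from its mean over the 8 glands (columns); red is higher and blue lower. Blood vessel genes at the top are mostly red in flox/flox replicate 1 and blue in flox/flox replicate 4, whereas Vegfc and Angpt2 are higher in the 4 controls than in the 4 flox/flox glands.

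Secreted and enzyme products of endothelium had a median of -0.01 over 4 genes, none at an unadjusted p under 0.05. Vwf, the von Willebrand factor that tethers platelets, read 322, 323, 404 and 399 in flox/+ and 554, 339, 372 and 408 in flox/flox glands. The value in flox/flox replicate 1 stood above the rest, and the log2 difference was 0.18 ± 0.14 (SE, adjusted p = 0.698). Platelet and megakaryocyte markers summed to 1314 in that gland, the highest of the flox/flox glands (1109 to 1314) and inside the control range of 1221 to 1558. Their part in the Vwf values was not tested. Mmrn2, a matrix protein of the vessel wall, was at 0.06 ± 0.11, and Nos3, the endothelial nitric oxide synthase, at -0.09 ± 0.08. Egfl7, an endothelial matrix protein gene, was at -0.09 ± 0.11. The gene of miR-126a, an endothelial miRNA, lies within the span of Egfl7 in the RefSeq annotation, and its own probe set was looked up after the values of the list were known. It read 79.8, 54.0, 63.2 and 47.9 in flox/+ and 58.5, 111.8, 94.3 and 57.9 in flox/flox glands, with overlap and a difference of 0.30 ± 0.19 (adjusted p = 0.626). Several of these values lay in the range of Mmrn1 (31.6 to 72.1), where signal cannot be told from background. Whether the probe set reads the mature miRNA, whose sequence is shown above, was not tested.

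Among the VEGF ligands and receptors the ligand gene Vegfc was lower in every flox/flox gland, while Vegfa and the receptors overlapped between the genotypes. The median difference of the 5 genes was -0.09. Vegfc, the main growth factor of lymphatic vessels, read 225, 187, 223 and 179 in flox/+ and 140, 149, 146 and 175 in flox/flox glands. The highest flox/flox value, in replicate 4, lay just under the lowest control, and with the values as deposited the genotypes overlapped. The log2 difference was -0.38 ± 0.09 (SE, interval -0.59 to -0.17), or 77.0% of the control level. The exact 2-sided permutation test gave p = 0.0286, the smallest that 4 against 4 arrays allow, and the limma adjusted p was 0.233. Any gene without overlap gets that permutation p. With the mean score of the 7 blood vessel markers as a covariate, added after the values were seen, the difference was -0.37 (adjusted p = 0.278). The mean of these markers differed by only 0.02 between the genotypes, so that covariate could move the difference little. With the lymphocyte score it was -0.41 (adjusted p = 0.242).

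Vegfa, the main growth factor of blood vessels, read 962, 974, 838 and 1279 in flox/+ and 996, 1061, 994 and 813 in flox/flox glands. Its highest value was in flox/+ replicate 4 and its lowest in flox/flox replicate 4, and the difference was -0.06 ± 0.13. Kdr, the principal VEGF receptor of blood vessels, was at 0.14 ± 0.11. Flt4, the receptor for VEGF-C, was at -0.09 ± 0.08 on low intensities. Flt1, a VEGF receptor that also acts as a decoy, read 462, 525, 498 and 466 in flox/+ and 368, 600, 314 and 401 in flox/flox glands. In 3 flox/flox glands it lay below every control and in replicate 2 above every control, and the difference was -0.24 ± 0.16 (adjusted p = 0.636). Without flox/flox replicate 2 the difference was -0.42 ± 0.09 (limma adjusted p = 0.214). Leaving out the gland that went the other way was bound to enlarge the difference, so that fit is no test. Flt1 was at an unadjusted p under 0.05 in 1 of 8 fits with 1 array left out. Of 10 further VEGF and neuropilin genes 7 were positive and 3 negative, with a median of 0.07, and 0 were at an unadjusted p under 0.05. Those with the smallest p were Plcg1, a phospholipase downstream of VEGF receptors (0.08 ± 0.08), and the semaphorin receptor gene Plxnd1 (0.09 ± 0.09), and the lymphatic ligand gene Vegfd was at 0.03 ± 0.13.

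Of the angiopoietin and TIE genes, Angpt2 was lower in every flox/flox gland. Angpt2, a ligand of the TIE2 receptor that is linked to vessel remodelling and sprouting, read 277, 250, 297 and 247 in flox/+ and 182, 203, 221 and 230 in flox/flox glands. The genotypes did not overlap, although with the values as deposited they did. The log2 difference was -0.34 ± 0.09 (SE, interval -0.53 to -0.14), or 79.2% of the control level, with an exact permutation p of 0.0286 and a limma adjusted p of 0.239. It was -0.33 (adjusted p = 0.280) with the blood vessel score as a covariate, which could move it little for the reason given for Vegfc. Angpt1, the stabilising ligand made largely by perivascular cells, was at -0.07 ± 0.14. The receptor genes Tek, which encodes TIE2, and Tie1 were at 0.10 ± 0.10 and 0.02 ± 0.10. With 1 array left out at a time, Vegfc and Angpt2 stayed negative and at an unadjusted p under 0.05 in 8 of 8 fits. Their differences lay between -0.44 and -0.33 for Vegfc and between -0.38 and -0.28 for Angpt2. The adjusted p was never below 0.215 and 0.231. As the values of these genes did not overlap, leaving out 1 array could hardly change the sign.

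**Figure D3:**
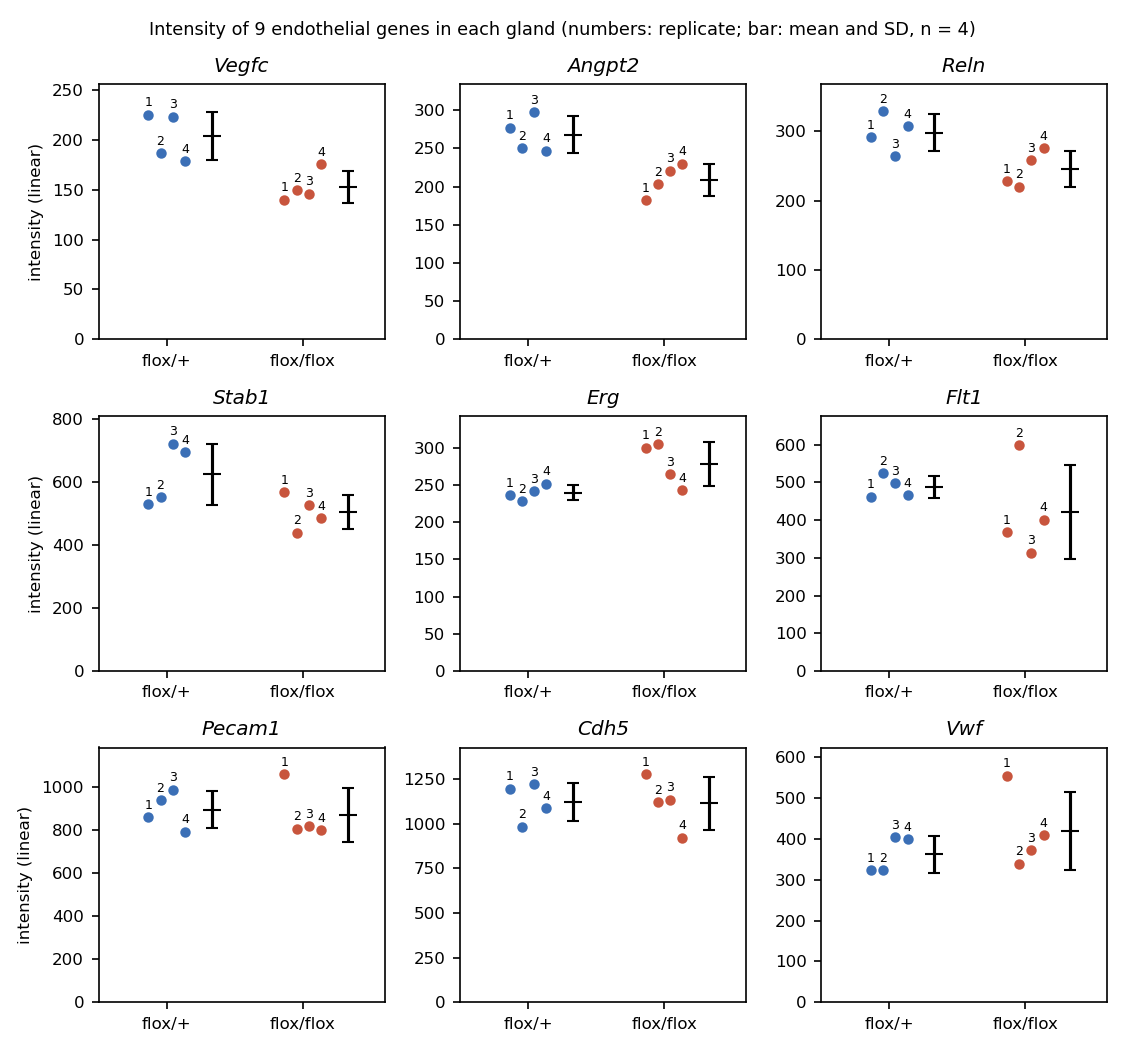
Intensity on a linear scale (y axis) of 9 genes in the 4 flox/+ (blue) and 4 flox/flox (red) glands; numbers give the replicate, and the black bar is the mean with its SD. The 4 flox/flox points of Vegfc and Angpt2 lie below all 4 controls, while those of Pecam1, Cdh5 and Vwf overlap them.

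Apelin, a peptide of sprouting endothelial tips, and its receptor did not differ beyond their spread. Apln, with the larger difference of the pair, read 261, 263, 299 and 240 in flox/+ and 262, 271, 288 and 279 in flox/flox glands. The flox/flox values all lay inside the control range, at 0.05 ± 0.07 (adjusted p = 0.865), and the receptor gene Aplnr was at -0.03 ± 0.11. Aplnr was lowest in flox/+ replicate 2 (350), and its difference was -0.14 without that gland and -0.11 with the lymphocyte score as a covariate (adjusted p = 0.677 and 0.742). The cause of that low value was not tested.

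The SOXF and ETS transcription factors had a median of 0.02 over 6 genes, with 3 positive. The SOXF genes, which act redundantly in vessel development and are relatives of Sox9, overlapped between genotypes: Sox7 at 0.07 ± 0.11, Sox17 at -0.04 ± 0.11 and Sox18 at 0.13 ± 0.17. Sox18 ranged from 274 in flox/+ replicate 2 to 519 in flox/flox replicate 3. Sox17 was lowest in flox/+ replicate 2 (155.0) and nearly as low in flox/flox replicate 4 (155.4). Without flox/+ replicate 2 the differences were -0.12 for Sox17 and 0.04 for Sox18. Without flox/flox replicate 4 they were 0.04 for Sox17 and 0.19 for Sox18. Erg, an ETS factor that maintains endothelial junctions, read 237, 229, 242 and 252 in flox/+ and 301, 305, 265 and 243 in flox/flox glands. In 3 flox/flox glands it was above every control, and in replicate 4 it lay inside the control range, whereas with the values as deposited the genotypes did not overlap. The log2 difference was 0.20 ± 0.08 (SE, interval 0.02 to 0.38), with an exact permutation p of 0.0571 and a limma adjusted p of 0.450. Its unadjusted p stayed under 0.05 in 3 of 8 fits with 1 array left out, and was 0.0638 with the lymphocyte score as a covariate and 0.0627 with the replicate number as a block. Fli1, an ETS factor of endothelium and blood cells, was at -0.09 ± 0.09. Ets1, which lymphocytes also express, was at -0.13 ± 0.11, and its highest value (552) was in flox/+ replicate 2, the gland rich in lymphocyte markers. With the lymphocyte score as a covariate Ets1 was at -0.06, and without that gland at -0.03. The score was high in that gland alone, so these fits cannot tell lymphocytes from other features of the gland. The part of lymphocytes in the Ets1 values was not tested.

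Lymphatic and sinusoidal genes had a median of -0.10 over 7 genes, 4 negative and 3 positive. At an unadjusted p under 0.05, 2 were lower (28.6%, where 5.46% of all genes were lower). Reln, a secreted guidance protein made by collecting lymphatic vessels, read 292, 328, 264 and 307 in flox/+ and 228, 220, 258 and 276 in flox/flox glands. Only flox/flox replicate 4 lay above the lowest control. The log2 difference was -0.26 ± 0.09 (SE, interval -0.46 to -0.06), with an exact permutation p of 0.0571 and a limma adjusted p of 0.337, and it stayed negative at an unadjusted p under 0.05 in 8 of 8 fits with 1 array left out.

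Stab1, a scavenger receptor of sinusoidal and lymphatic endothelium that tissue macrophages also make, read 530, 553, 723 and 695 in flox/+ and 568, 440, 528 and 486 in flox/flox glands. Control replicates 3 and 4 stood above the other 6 glands, and the remaining controls lay among the flox/flox values. The log2 difference was -0.29 ± 0.12 (interval -0.55 to -0.04), with an exact permutation p of 0.114 and a limma adjusted p of 0.427. Its unadjusted p stayed under 0.05 in 4 of 8 fits with 1 array left out. The summed intensity of 12 macrophage markers was highest in the same control glands, at 9094 in replicate 3 and 8880 in replicate 4, over ranges of 5869 to 9094 in flox/+ and 6130 to 8342 in flox/flox. Of these markers 8 had negative and 4 positive differences, and none was at 0. At an unadjusted p under 0.05 there were 2 (16.7%, against 10.3% of all genes), Timd4 at -0.72 ± 0.23 and Fcgr1 at -0.37 ± 0.12. The part of macrophages in the Stab1 values was not tested.

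The remaining lymphatic genes did not differ beyond their spread. Lyve1, the hyaluronan receptor of lymphatic endothelium and of some macrophages, had the widest spread of all 38 genes: it read 357, 524, 900 and 367 in flox/+ and 668, 483, 572 and 508 in flox/flox glands. The control values bracketed all flox/flox values, and the difference of 0.14 ± 0.24 became 0.42 ± 0.15 without flox/+ replicate 3 (adjusted p = 0.497). Stab2, a hyaluronan scavenger receptor of sinusoids, was highest in flox/+ replicate 2 (147, against 95.5 to 114 elsewhere) and had a difference of -0.14 ± 0.10, which was -0.07 with the lymphocyte score as a covariate. Glycam1, a ligand of high endothelial venules in lymph nodes and also a milk protein, read 4672 in that gland and between 93.3 and 115 in the others. The part of lymph node tissue in the Stab2 values was not tested. Pdpn, which fibroblasts and basal epithelium share with lymphatic endothelium, was at 0.04 ± 0.12 and highest in flox/flox replicate 4 (559), the gland with the most epithelial marker signal. It was lowest in flox/+ replicate 3 (382), the control with the highest sum of epithelial markers (15808). The part of epithelium in the Pdpn values was not tested. Prox1, the master regulator of lymphatic fate, was at -0.10 ± 0.11 and Mmrn1 at 0.04 ± 0.19, both on low intensities. Without flox/+ replicate 1, in which it was lowest, Prox1 was at -0.21 (adjusted p = 0.482).

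**Figure D4:**
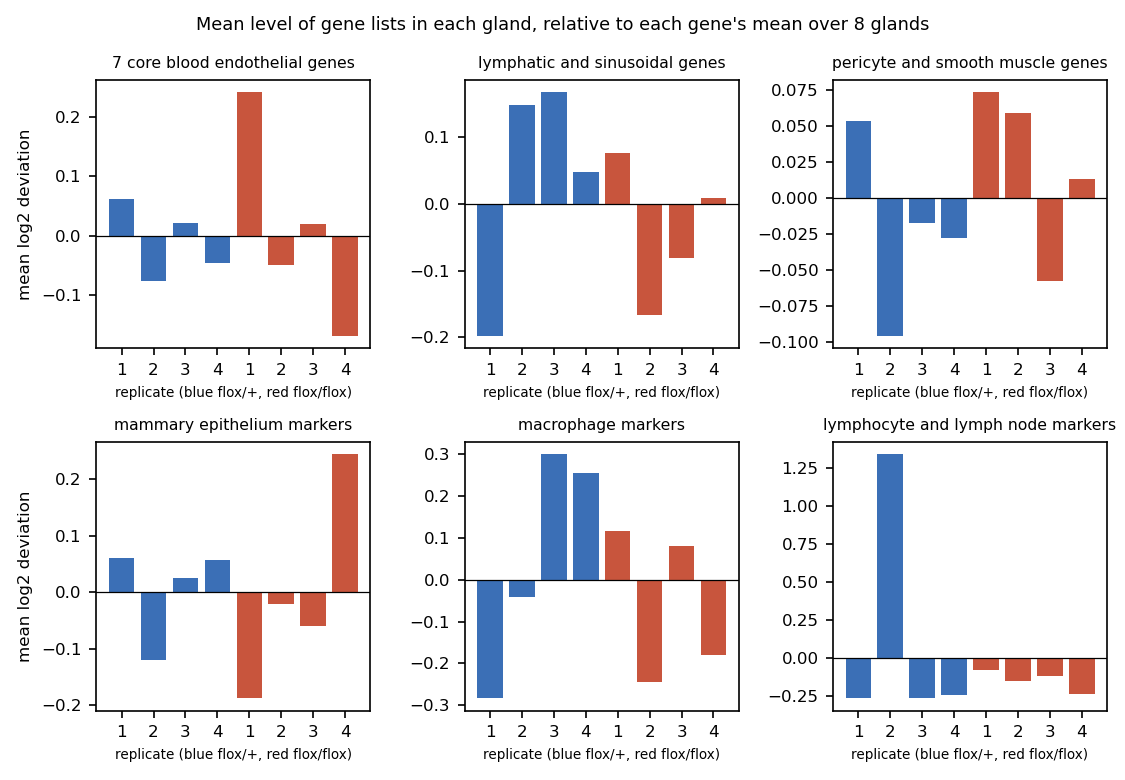
Mean log2 deviation (y axis, with a different scale in each panel) of 6 gene lists in each gland (x axis, replicates 1 to 4 of flox/+ in blue and of flox/flox in red). The 7 blood vessel markers peak in flox/flox replicate 1, where epithelial markers are lowest, and lymphocyte markers stand out in flox/+ replicate 2.

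Other genes of the vasculature were taken from lists of the same pathways. Of 35 further endothelial genes 0 passed the test, and the median was 0.02. At an unadjusted p under 0.05 there were 5 (14.3%, against 10.3% of all genes), 1 higher and 4 lower. The tight junction gene Cldn5, a defining marker of blood vessel endothelium, read 668, 396, 667 and 475 in flox/+ and 475, 339, 351 and 300 in flox/flox glands. Only flox/flox replicate 1 lay above any control, with a log2 difference of -0.56 ± 0.18 and a limma adjusted p of 0.311. Adgrl4, an adhesion G protein-coupled receptor of endothelium, was at 0.27 ± 0.08 (adjusted p = 0.296), the adhesion molecule gene Mcam at -0.38 ± 0.12 (adjusted p = 0.317) and the blood and endothelial transcription factor gene Tal1 at -0.23 ± 0.10. Of 24 arterial, venous and Notch genes 1 (4.17%), the Notch target Hes1, was at an unadjusted p under 0.05 (0.41 ± 0.14), and the median was 0.03.

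Of 13 further lymphatic genes 2 were at an unadjusted p under 0.05 (15.4%, against 10.3% of all genes), both lower. They were Ccbe1, which helps to activate VEGF-C outside the cell (-0.23 ± 0.08, adjusted p = 0.320), and the lectin gene Clec4g (-0.16 ± 0.07). Ccbe1 read 207, 221, 210 and 251 in flox/+ and 196, 174, 181 and 196 in flox/flox glands, without overlap (1 of 13 genes, 7.69%, against 5.89% of all genes). Of 10 venule and adhesion genes 3 (30.0%) were at that p. Sele, the endothelial selectin induced in inflammation, read 117, 112, 111 and 107 in flox/+ and 129, 132, 140 and 133 in flox/flox glands. It did not overlap between genotypes (0.22 ± 0.06, adjusted p = 0.246), nor did the venular chemokine receptor gene Ackr1 (0.30 ± 0.09, adjusted p = 0.287), and Fut7, an enzyme of selectin ligands, was at -0.15 ± 0.07. Of 19 pericyte and smooth muscle genes 1 (5.26%) was lower at that p, the PDGF receptor gene Pdgfrb (-0.23 ± 0.10), and the median was 0.06. Of 21 hypoxia-regulated genes 3 were higher at that p (14.3%, where 4.80% of all genes were higher), and the median was 0.06. These 3 were the glucose transporter gene Slc2a1 (0.33 ± 0.07, adjusted p = 0.173), the glycolytic enzyme gene Pgk1 (0.25 ± 0.07) and the oxidase gene Ero1a (0.14 ± 0.06). None of these further genes passed the adjusted threshold.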

How the data were processed

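RNA was measured in 8 mammary glands, 4 per genotype. Each probe set's deposited intensity is linear, and the submitters' processing notes name PLIER and Expression Console 1.0 for it. Background correction and scaling between arrays are steps not given in the sources used here. Of 35557 probe sets, 21789 carried 1 gene symbol in the platform annotation, 1621 several and 12147 none here. The brightest probe set stood for a gene, which left 19938 genes with no filter on low values; unmatched columns numbered 0.

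Values were offset by 16, taken to log2 and quantile normalized, because array percentiles differed by up to 0.245. The genotype comparison used lmFit and eBayes (limma 3.58.1, R 4.3.3) across all genes, with Benjamini-Hochberg adjustment. Named genes also had a 2-sided exact permutation test over 70 assignments. On simulated arrays of 19938 genes for this comparison, limma recovered 56% of 50 genes given a log2 change of 0.5 and 98% of 50 given 1. It recovered 100% of 50 given 2 and of 50 given 4. There 191 genes were called, 7.33% of them falsely, against 8 in these data. With more genes called the adjusted threshold is easier to pass, so the recovery of small changes does not carry over to these data.

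Members and lists were chosen with earlier results of these data known. All 38 members may be named. Values per gland are given for those at an unadjusted p under 0.05 or without overlap and for the largest difference in each role group, beside Pecam1, Cdh5, Vegfa, Flt1 and Lyve1, which were added after their values were seen. From other lists up to 4 genes at that p, or the 2 with the smallest p, are named, and Vegfd, Glycam1 and Mir126a were chosen after their values were seen. The labels do not say that equal replicate numbers mark shared litters or days, and deviations of same-numbered glands correlated between -0.204 and 0.209, so the numbers were not used to pair. Whether glands came from separate litters is not stated, so p-values measure the spread between these mice. Alternatives were other normalizations, offsets of 1 and 64, a filter on the lowest 1 in 3 genes, the mean over probe sets, all probe sets, eBayes options, array weights, a replicate block, marker scores as covariates and each array left out.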

Additional observations from a re-analysis of the deposited data

Results flagged for a closer look

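A gland that stood apart from the other 3 of its genotype was found in 4 of 76 sets of 4 values (38 genes in 2 genotypes), by the gap to its nearest neighbour relative to the range, and chance alone marks about 1 in 20 such sets. Pecam1 read 1058 in flox/flox replicate 1, with the next value at 817. Icam2 read 126.4 in flox/flox replicate 4, below the next value of 175.9. Nos3 read 528.6 in flox/+ replicate 1, above the next control at 459.8, and 397.5 in flox/flox replicate 4, below the next value of 457.7.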

How the results depend on the processing

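The count of 0 members past the adjusted threshold held in all 19 settings in which it was run, as did the signs of Vegfc, Angpt2, Reln, Stab1 and Erg in 20 of 20 settings each. The number at an unadjusted p under 0.05 lay between 4 and 8 with 1 array left out, with 8 without flox/flox replicate 4, where 8.21% to 10.7% of all genes were at that p in these fits. The number without overlap lay between 2 and 7 (8.60% to 10.6% of all genes), and was 1 (Erg) with the values as deposited. With the replicate number as a block 4 members had an unadjusted p under 0.05 and 0 passed, and with the lymphocyte score as a covariate there were also 4, beside 9.46% of all genes in either fit. A sign changed in some setting for 16 members and the cause was not tested. With 1 array left out the log2 differences ranged from -0.14 to 0.0052 for Pecam1, -0.083 to 0.073 for Cdh5, -0.0056 to 0.15 for Tek, -0.046 to 0.11 for Tie1, -0.075 to 0.046 for Emcn, -0.14 to 0.064 for Esam, -0.12 to 0.066 for Eng, -0.12 to 0.035 for Sox17, -0.037 to 0.24 for Sox18, -0.10 to 0.19 for Mmrn1, -0.032 to 0.13 for Mmrn2, -0.013 to 0.42 for Lyve1, -0.063 to 0.12 for Pdpn, -0.19 to 0.043 for Angpt1, -0.14 to 0.058 for Vegfa and -0.14 to 0.036 for Aplnr. With values as deposited and with median centring the differences were, in that order, Aplnr 0.0032 and 0.0016, Cdh5 0.017 and 0.015, Emcn 0.014 and 0.012, Eng 0.011 and 0.0099, Esam 0.012 and 0.010. With the lymphocyte score as a covariate Tie1 was at -0.014. The median of the VEGF group moved from -0.09 to -0.15 without the lowest 1 in 3 genes, a filter that drops Flt4. That filter also drops Prox1, Mmrn1 and Stab2. Low intensities limit Prox1 and Mmrn1 most, and to a lesser degree Flt4 and Stab2.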
